A study of Mus musculus with 24 samples.

Results

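The genes described here encode the oxidative phosphorylation machinery of the mitochondrion, in mouse gliomas driven by PDGFB and in the cells around them. Members were chosen by gene symbol alone. They are the complex I subunits and assembly factors (Ndufa, Ndufb, Ndufc, Ndufs and Ndufv names), complex III (Uqcr), complex IV (Cox4 to Cox8), ATP synthase (Atp5) and the protein-coding genes of the mitochondrial genome (mt-). Names marked as pseudogenes by -ps were left out, 14 in all, while Ndufa11b, Ndufb4c, Ndufs6b and Cox6c2, which GENCODE also lists as processed pseudogenes, match the rule and stay in. This gave 109 of the 55938 rows of the count table: 96 nuclear rows, which carry 93 symbols, and 13 mitochondrially encoded genes. The nuclear rows hold 42 complex I subunits, 8 complex I assembly factors, 9 complex III, 19 complex IV and 18 ATP synthase genes. The mitochondrial genome adds 7 complex I subunits, 1 of complex III, 3 of complex IV and 2 of ATP synthase.

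Complexes I, III and IV pass electrons from NADH to oxygen and pump protons across the inner mitochondrial membrane, and ATP synthase uses that gradient to make ATP. Complexes I, III and IV and ATP synthase each join proteins made in the cytosol from nuclear genes with a core of hydrophobic proteins made inside the mitochondrion. The mitochondrial genome is transcribed by its own polymerase into long RNAs that are then cut into shorter messages. It is present in many copies per cell.

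The gliomas arose after PDGFB had been delivered in utero to the telencephalic ventricles of mouse embryos. All groups share this treatment, so the surrounding cells are cells of the same tumour-bearing brains and not of healthy ones. Each of 12 tumours was dissected and its cells were sorted by fluorescence into a labelled population (glioma) and an unlabelled population (surrounding), which gave 24 libraries of poly(A) RNA. The fluorescent marker was GFP in 11 tumours and red in tumour 3057E. The tumours fall into 3 stages of 4. Asymptomatic tumours (3228A, 3228B, 3228D and 3229B) came from mice without symptoms 33 to 34 days after transduction, early symptomatic ones (3108C, 3108D, 3109D, 3145A) from mice with symptoms at 35 to 50 days, and late symptomatic ones (3054A, 3054B, 3054C, 3057E) from mice with symptoms at 100 to 175 days. The labels state symptoms and days, and the split of symptomatic tumours into early and late follows a suffix of the sample descriptions. Stage, day and code prefix cannot be told apart. The surrounding population is a mixture of cell types, and in such bulk samples fewer cells of a type and less RNA per cell cannot be told apart.

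Library totals ran from 9.076e+06 to 1.547e+07 expected counts. Of 8 markers of oligodendrocyte precursor cells, a cell type that PDGF drives to divide, 6 were higher in glioma at an edgeR adjusted p below 0.05. Microglial, endothelial, pericyte and mature oligodendrocyte markers were lower in glioma, 6 of 6 in each list. Over all genes tested, 22% were called higher and 24.2% lower. Some libraries stand apart. In glioma 3057E the summed microglia markers reached 1390 CPM (counts scaled to library size, with TMM factors as everywhere below), against 48.8 to 463 CPM in the other 11 glioma libraries, and surrounding 3057E had 1342 CPM, the lowest of its population. Surrounding 3229B had the highest summed mature oligodendrocyte markers, 29540 CPM, against 2892 to 8325 CPM in the other 11 surrounding libraries. Summed precursor cell markers overlapped between the populations, at 6865 to 11160 CPM in glioma and 457 to 8376 CPM in surrounding cells. So did summed astrocyte markers (512.7 to 2118 against 139.3 to 5110 CPM) and neuron markers (81.89 to 326.5 against 37.75 to 458.1 CPM). Codes 3108D and 3109D look exchanged in 1 population: Xist, transcribed from the inactive X chromosome, stood at 1690 CPM (unscaled) in glioma 3108D and 2.31 in surrounding 3108D, and at 2.05 in glioma 3109D and 1030 in surrounding 3109D.

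The libraries were made from poly(A) RNA, and how well each mitochondrial mRNA was captured was not tested. The ends of the mitochondrial genes are given as a description. Overlaps between the genes bear on how reads were counted. Of the 13 genes, 3 end in a lone T of an unfinished stop codon that only the added poly(A) tail completes. Their last 30 bases in GRCm38, from GENCODE M21, are shown with the bases beyond the last whole codon in capitals, and mt-Co1 is given for comparison with its encoded stop codon in capitals.
mt-Nd4: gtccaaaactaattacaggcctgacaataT
mt-Cytb: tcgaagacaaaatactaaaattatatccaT
mt-Co3: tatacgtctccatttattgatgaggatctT
mt-Co1: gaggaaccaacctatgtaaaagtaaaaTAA
The 2 mitochondrial ATP synthase genes share 43 bases (chrM:7927-7969, plus strand), so reads there could belong to either gene. The shared bases are capitalised below in the last 60 bases of mt-Atp8 and the first 60 of mt-Atp6.
mt-Atp8: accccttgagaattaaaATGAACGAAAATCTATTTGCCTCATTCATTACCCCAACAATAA
mt-Atp6: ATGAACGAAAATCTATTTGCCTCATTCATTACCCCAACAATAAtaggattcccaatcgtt
The genes mt-Nd4l and mt-Nd4 share 7 bases on the same strand. The end of mt-Nd5 overlaps mt-Nd6 by 14 bases on opposite strands, and mt-Nd6 is the only mitochondrial member on the minus strand. Whether strand was used in counting is not given in the sources used here, so the levels of mt-Nd6, mt-Nd4l and mt-Atp8 are uncertain.

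Glioma cells held fewer mitochondrially encoded transcripts for each nuclear oxidative phosphorylation transcript than the cells around them, in every tumour. The 13 mitochondrial genes took 4.91% to 9.47% of all gene counts in the 12 glioma libraries (median 7.66%), against 5.61% to 23.9% in the 12 surrounding libraries (median 10.3%). The 96 nuclear rows together took 0.571% to 0.960% in glioma and 0.395% to 0.761% in surrounding cells. Both shares overlapped between the populations. Counted against each other, there were 6.48 to 14.4 mitochondrial counts per nuclear count in glioma libraries and 10.2 to 39.0 in surrounding libraries.

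As a log2 ratio of nuclear over mitochondrial counts, which does not depend on how libraries are scaled, glioma averaged -3.40 ± 0.34 and surrounding cells -4.41 ± 0.59 (SD, n = 12 each). The ratio was higher in glioma in 12 of 12 tumours, by 0.170 to 1.95 with a mean difference of 1.01 ± 0.58 (SD over tumours), and also in 12 of 12 when the surrounding codes 3108D and 3109D were exchanged. Both terms moved in most tumours, since the mitochondrial share was lower in glioma in 10 of 12 and the nuclear share higher in 11 of 12. The exceptions for the mitochondrial share were 3108D, with 8.09% in glioma and 5.61% in surrounding cells, and 3145A, with 7.68% in glioma and 7.62% in surrounding cells. The exception for the nuclear share was 3229B. No p is given for this ratio, since it is a score over chosen members.

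**Figure D1:**
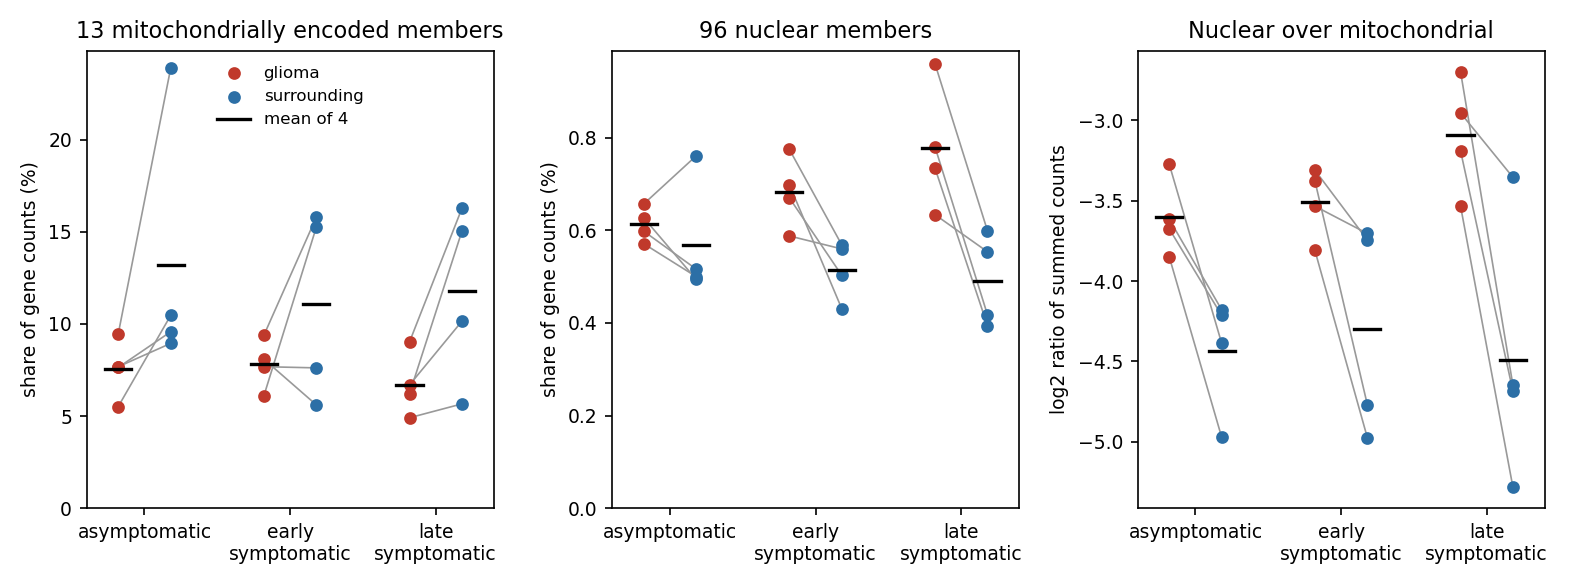
Share of gene counts taken by the 13 mitochondrially encoded members (left, percent) and by the 96 nuclear members (middle, percent), and the log2 ratio of their summed counts (right), for each of 24 libraries. Lines join the libraries of 1 tumour code and bars are means of 4. The log2 ratio is higher in glioma in 12 of 12 tumours, and surrounding 3229B stands at 23.9% mitochondrial counts.

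At the level of single genes, all 13 mitochondrially encoded members were lower in glioma than in surrounding cells over the 3 stages (edgeR quasi-likelihood test, adjusted p 0.00475 to 0.0282), with log2 fold changes from -1.05 to -0.77. Across all 18810 genes tested, 24.2% were called lower. The complex I subunit mt-Nd4 had a lowest, median and highest level of 4071, 7035 and 10060 CPM in glioma, against 5142, 11080 and 34840 CPM in surrounding cells. Its log2 fold change was -0.999 ± 0.28 (SE; edgeR adjusted p = 0.00586), and it was lower in glioma in 11 of 12 tumours. The ranges of the 2 populations overlapped, for this gene and for the other 12.

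The other complex I subunits of the mitochondrial genome moved by similar amounts. The log2 fold change was -1.01 for mt-Nd1, -0.94 for mt-Nd2, -1.05 for mt-Nd3, -1.02 for mt-Nd4l, -0.94 for mt-Nd5 and -0.96 for mt-Nd6, with SE between 0.28 and 0.31 in the same edgeR fit. Each was lower in glioma in 11 of 12 tumours. With the surrounding codes 3108D and 3109D exchanged, each was again lower in 11 of 12. With the codes as labelled the exception was 3108D each time, where mt-Nd1 stood at 6839 CPM in its glioma library and at 3448 CPM in its surrounding library.

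Cytochrome b, the mitochondrially encoded subunit of complex III (mt-Cytb), had a lowest, median and highest level of 4575, 7554 and 11990 CPM in glioma, against 5413, 11680 and 31450 CPM in surrounding cells. Its log2 fold change was -0.95 ± 0.27 (SE; edgeR adjusted p = 0.00637). The catalytic subunit of complex IV, mt-Co1, was the most abundant member, at 12210 to 27880 CPM in glioma (median 19090) and 13690 to 80330 CPM in surrounding cells (median 30260), with a log2 fold change of -0.93 ± 0.29 (SE; edgeR adjusted p = 0.0108). The copper-binding subunit mt-Co2 had a log2 fold change of -1.03 and mt-Co3 one of -0.92. The ATP synthase subunits mt-Atp6, part of the proton channel, and mt-Atp8 had the smallest changes, -0.89 and -0.77, and mt-Atp8 was lower in 9 of 12 tumours. The 3 genes with an unfinished stop codon, mt-Nd4, mt-Cytb and mt-Co3, had log2 fold changes within the range of the other mitochondrial members. These values do not test how the mRNAs were captured. The ribosomal RNAs of the mitochondrial genome, which are not members, had log2 fold changes of -0.51 ± 0.29 (mt-Rnr1) and -0.59 ± 0.28 (mt-Rnr2) and were not called (edgeR adjusted p = 0.162 and 0.0924).

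The call for the mitochondrial genes depended little on single tumours: 11 to 13 of 13 were called lower when each tumour was left out in turn, and 12 of 13 without 3108D and 3109D. Without 3229B, whose surrounding library held 23.9% mitochondrial counts, 12 were called, when 4742 of 19245 genes were called lower. In the other runs the share of all genes called lower is not given here. The 13 genes are transcribed together in long RNAs, so their calls are not 13 separate results. Surrounding libraries varied more among themselves than glioma libraries did, for mt-Nd4 with an SD of 1800 CPM in glioma and 8497 CPM in surrounding cells. Beside this, the surrounding libraries with the lowest mitochondrial shares, 3108D (5.61%), 3057E (5.66%) and 3145A (7.62%), had 7856, 6321 and 6006 CPM of summed precursor cell markers, against 457 to 8376 CPM over all 12. The highest sum, 8376 CPM, was in an asymptomatic library, a group with mitochondrial shares of 8.95% to 23.9%. Whether the mix of cell types sets the level of mitochondrial RNA in the surrounding population was not tested.

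Nuclear members did not share the fall. Of 89 nuclear members tested, 17 were higher and 3 lower in glioma, where 2 of the 3 passed the count filter through the surrounding libraries alone. Of the 89, 79 had a positive log2 fold change, with a median of 0.23. The share called higher, 17 of 89, lies near that of all genes, of which 22% were called higher, so the nuclear members do not stand apart from other genes by this count. The median log2 fold change over all genes was 0.06. The other 7 nuclear rows did not pass the count filter: Cox7a1, Cox7b2, Cox8b, Cox8c, Ndufa11b, Ndufs6b and a second row for Atp5o.

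**Figure D2:**
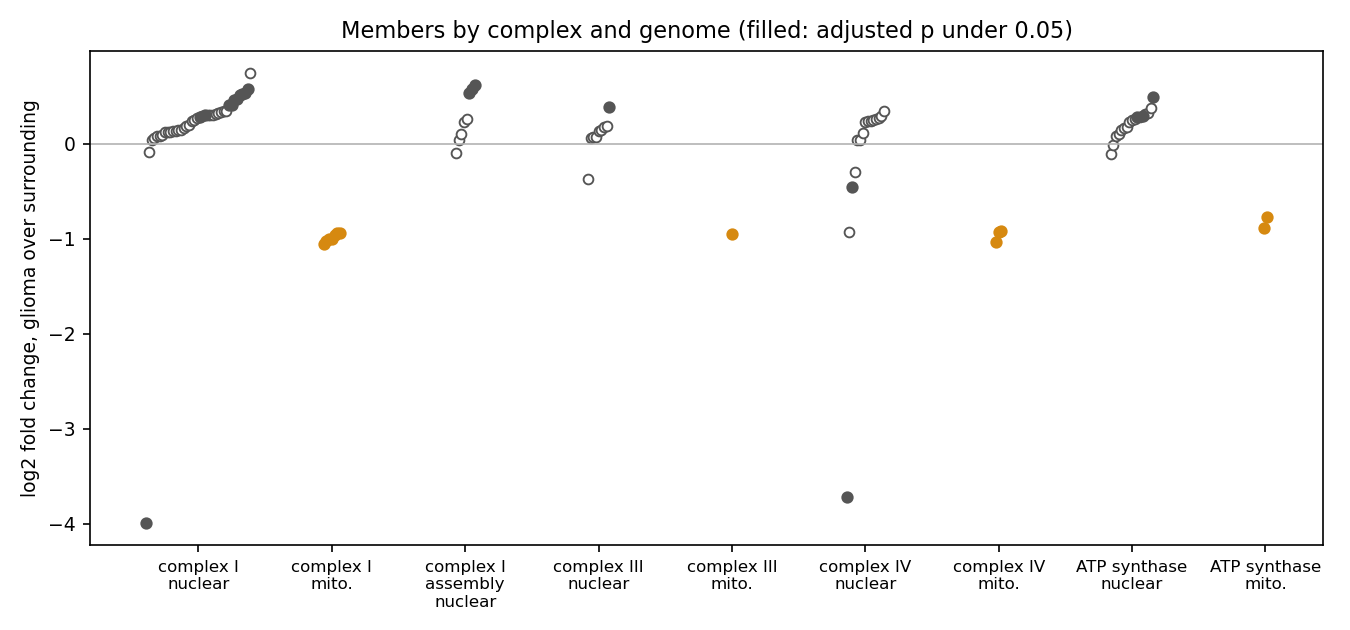
Log2 fold change (glioma over surrounding, all stages) of 89 nuclear members (grey) and 13 mitochondrially encoded members (orange), by complex; each point is a gene and filled points passed an adjusted p of 0.05. The mitochondrial genes sit between -1.05 and -0.77, most nuclear genes just above 0, and Ndufa4l2 and Cox6a2 near -4, both at very low counts in glioma.

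Complex I, whose 40 subunits and 8 assembly factors make up much of the 89 members tested, held 10 subunits and 3 assembly factors called higher and 1 subunit called lower. The 10 of 40 lie near the 22% of all genes called higher, so the subunits do not stand apart by this count. Ndufv2, an iron-sulfur subunit of the NADH-oxidising module, had a lowest, median and highest level of 113, 158 and 246 CPM in glioma, against 77.6, 107 and 157 CPM in surrounding cells. Its log2 fold change was 0.58 ± 0.13 (SE; edgeR adjusted p = 0.000932), higher in 10 of 12 tumours. Ndufs4, an accessory subunit whose loss in mice gives a model of Leigh syndrome, stood at 40.7, 54.1 and 85.9 CPM in glioma and 28.7, 41.5 and 70.6 CPM in surrounding cells, a log2 fold change of 0.51 ± 0.14 (SE; edgeR adjusted p = 0.00460). The assembly factor Ndufaf4 stood at 17.7, 24.05 and 36.0 CPM in glioma and 10.3, 18.6 and 21.7 CPM in surrounding cells. It was higher in glioma in 12 of 12 tumours, with a log2 fold change of 0.54 ± 0.13 (SE; edgeR adjusted p = 0.00215). The ranges of these 3 genes overlapped between populations.

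Among core subunits, Ndufs1, which carries electrons through iron-sulfur clusters, was higher by a log2 fold change of 0.30 ± 0.09 (SE; edgeR adjusted p = 0.00884), while Ndufv1, which binds NADH, had 0.10 ± 0.12 and was not called (edgeR adjusted p = 0.525). The other complex I subunits called higher were Ndufb2, Ndufa4, Ndufb11, Ndufab1, Ndufa9, Ndufc1 and Ndufa5. Ndufa4 is counted with complex I by its name, though its human protein was later assigned to complex IV. The 2 other assembly factors called higher were Ndufaf2 and Ndufaf5.

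Of 9 complex III members tested, only Uqcrb, a small subunit near the ubiquinone site, was higher (0.38 ± 0.13, SE; edgeR adjusted p = 0.0218). The core subunit Uqcrc1 had 0.06 ± 0.16 (edgeR adjusted p = 0.798), with reads possibly split between 2 rows of that symbol. Of 17 ATP synthase members tested, 3 were higher: Atp5o, a part of the stator stalk (0.49 ± 0.14; edgeR adjusted p = 0.00599), Atp5a1 and Atp5b, the alpha and beta subunits of the catalytic head. Atp5b stood at 563 to 1009 CPM in glioma (median 645) and 454 to 730 CPM in surrounding cells (median 537), with a log2 fold change of 0.29 ± 0.11 (SE; edgeR adjusted p = 0.0373), a call held in 4 of 22 alternatives. The 3 genes for the membrane ring subunit c, Atp5g1, Atp5g2 and Atp5g3, had log2 fold changes of 0.15, 0.16 and 0.32 and were not called.

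Complex IV, sorted by symbol and so without Ndufa4, had no nuclear member called higher among 15 tested, and 2 were called lower. Cox4i1, the widespread isoform of subunit 4, had a median of 198 CPM in glioma and 182 CPM in surrounding cells, with a log2 fold change of -0.29 ± 0.22 (edgeR adjusted p = 0.281). Surrounding 3229B stood at 652 CPM, against 133 to 360 CPM in the other 11 surrounding libraries. Cox7a2l, which helps join complexes III and IV into supercomplexes, was lower in glioma, at 78.8, 96.7 and 143 CPM (lowest, median and highest), against 77.3, 116 and 222 CPM in surrounding cells (log2 fold change -0.46 ± 0.18, SE; edgeR adjusted p = 0.0357). The abundant isoforms Cox6a1, Cox6b1, Cox7a2, Cox7b and Cox8a had log2 fold changes between 0.04 and 0.30 and were not called.

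The most negative fitted changes among nuclear members belonged to isoforms of restricted tissues, at very low counts. Both Ndufa4l2 and Cox6a2 passed the count filter through the surrounding libraries alone and failed it in the fits of glioma libraries, so they could be tested only by being higher in surrounding cells, and their levels are given as a description with no p. Ndufa4l2, a paralogue of Ndufa4 known as a target of hypoxia signalling and as a marker of pericytes, summed to 11 expected counts over the 12 glioma libraries, with 7 libraries at 0, against 206 counts over the 12 surrounding libraries, none at 0. Its levels were 0 to 0.267 CPM in glioma and 0.288 to 7.01 CPM in surrounding cells. The gap between these ranges is narrow and lies at very low counts, and passing the filter through the surrounding libraries favours it. Cox6a2, the heart and skeletal muscle isoform of subunit 6a, summed to 27 counts in glioma and 312 in surrounding cells. The fitted log2 fold changes, -3.99 for Ndufa4l2 and -3.73 for Cox6a2, depend at such counts on the prior count used. Beside these, the summed pericyte and smooth muscle markers were 2.96 to 34.2 CPM in glioma and 50.6 to 303 CPM in surrounding cells, with 6 of 6 markers lower and Vtn at 0 in 4 glioma libraries, and their part in these levels was not tested. Cox4i2, the isoform of lung and hypoxia, had a log2 fold change of -0.93 ± 0.70 (edgeR adjusted p = 0.291). Testis and muscle isoforms were near absent: Cox8b had no counts in glioma and 34 in surrounding cells, Cox8c had none in either, Cox7b2 had 9 in glioma and 7 in surrounding cells, and Cox7a1 had 32 in glioma and 44 in surrounding cells. Cox6b2, the testis isoform of subunit 6b, was low in both populations and not called.

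**Figure D3:**
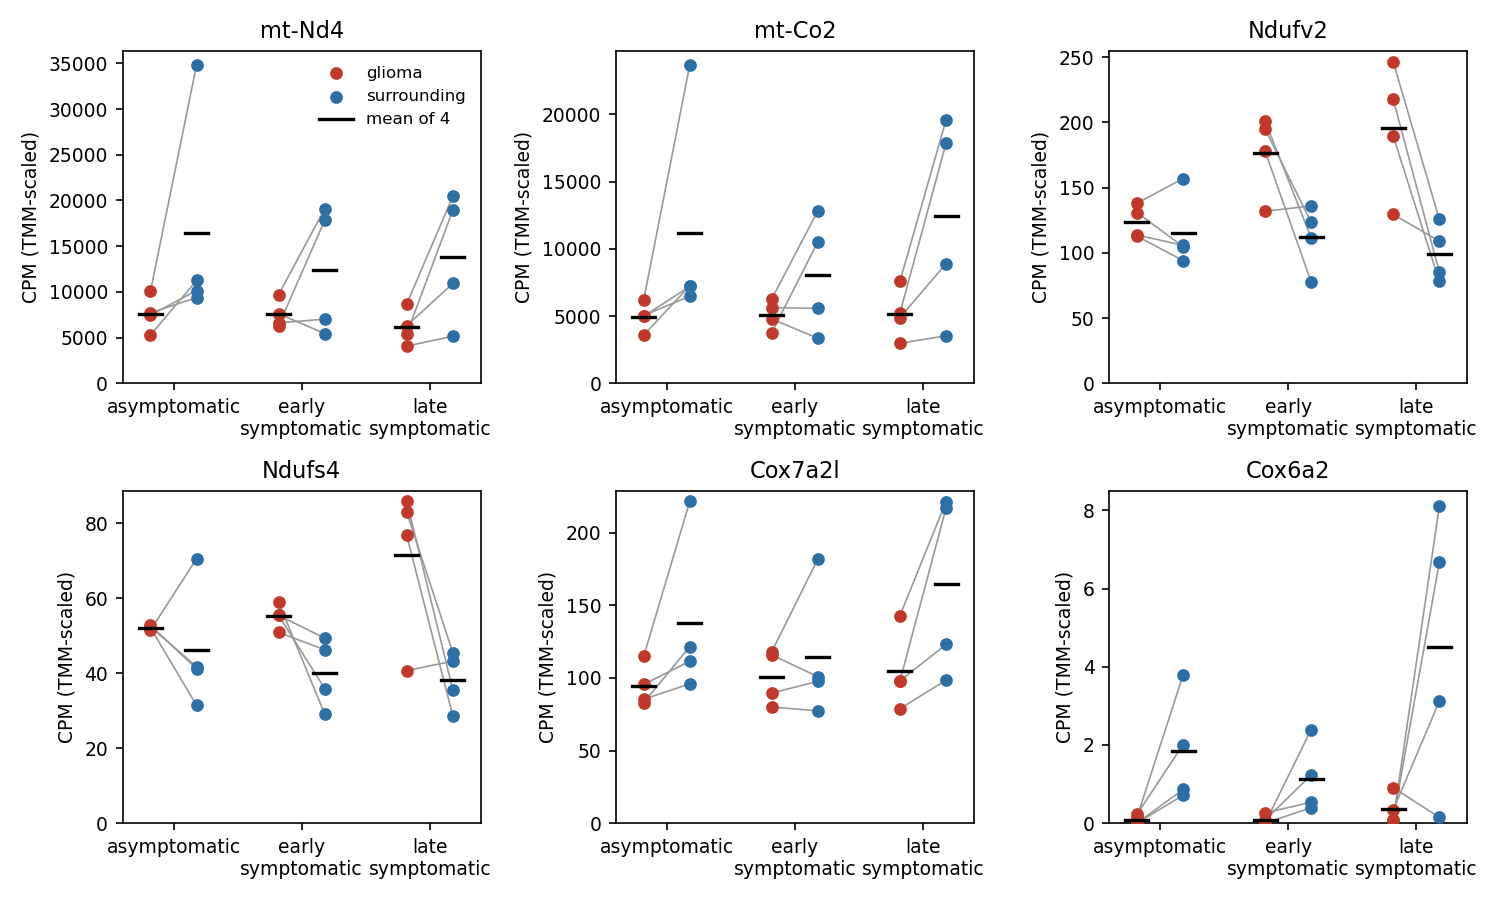
CPM (TMM-scaled) of 6 members in each library, by stage; lines join the libraries of 1 tumour code and bars are means of 4. Levels of mt-Nd4 and mt-Co2 are lower in glioma in most tumours with surrounding 3229B highest, Ndufv2 and Ndufs4 are higher in most glioma libraries, and Cox6a2 is at 0.910 CPM or less in every glioma library.

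Levels of different genes were compared per kilobase of transcript. The median over the 13 mitochondrial genes was 5106 CPM per kilobase in glioma and 8045 in surrounding cells, while over the 94 nuclear members with a known length it was 30.7 in glioma and 24.99 in surrounding cells. The order within the mitochondrial genome was led by mt-Co1, mt-Atp6 and mt-Atp8 in both populations. In glioma it ended with mt-Nd5, mt-Nd6 and mt-Nd3, at 1825, 1543 and 1189 CPM per kilobase.

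The number of nuclear calls depended on the libraries and the model more than that of mitochondrial calls. With each tumour left out in turn it ran from 5, without 3228A, to 20, without 3229B, and it was 4 without 3108D and 3109D. Also below the main count by more than 1.5 times were those without 3145A (6), 3228D (7), 3228B (8), 3054A (8), 3108D (9) and 3054B (10), against 17 with every library. With the tumour code as a block it was 29, when 28.6% of all genes were called higher. Without 3229B, 3071 of 19245 genes were called higher. For the other runs with tumours left out, the share of all genes called is not given here. Their counts of members cannot be set against it. Of the 17, Ndufv2, Ndufaf4 and Atp5o were called in each of 22 alternatives, while Atp5b was called in 4, Ndufa5 in 5, Ndufa9 in 6, Atp5a1 and Ndufc1 in 7, Ndufab1 and Uqcrb in 9 and Ndufaf5 in 10.

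Promoters of nuclear oxidative phosphorylation genes are known for motifs of the factors NRF1, GABP and YY1. Windows of 300 bases, from 250 before to 50 after the start, were available from RefSeq (GRCm38.p6) for 73 of 93 nuclear symbols. The letters GCGCATGCGC (the NRF1 motif), CCGGAAG (the ETS motif that GABP binds) and AAGATGGC (YY1) were searched on both strands. NRF1 letters were in 9.59% of member windows against 1.07% of all 27025 genes, ETS letters in 23.3% against 9.93%, YY1 letters in 15.1% against 3.19%, and at least 1 of them in 42.5% against 13.4%. Of the 14 members called higher in glioma with a window, 5 held at least 1 motif (2 NRF1, 3 YY1 and no ETS). The windows of the 3 members with the smallest p among those called higher are printed with matches in capitals, and the first has none. A match is a description of the letters and not a site shown to be used.
Ndufv2, chr17:66101510-66101809, minus strand: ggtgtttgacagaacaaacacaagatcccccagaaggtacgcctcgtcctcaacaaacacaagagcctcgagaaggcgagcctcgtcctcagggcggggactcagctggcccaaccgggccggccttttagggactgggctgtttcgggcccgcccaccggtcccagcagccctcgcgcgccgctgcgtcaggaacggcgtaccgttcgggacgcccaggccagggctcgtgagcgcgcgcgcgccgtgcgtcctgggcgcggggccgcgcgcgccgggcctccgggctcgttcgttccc
Ndufaf4, chr4:24897833-24898132, plus strand, NRF1 letters at -113: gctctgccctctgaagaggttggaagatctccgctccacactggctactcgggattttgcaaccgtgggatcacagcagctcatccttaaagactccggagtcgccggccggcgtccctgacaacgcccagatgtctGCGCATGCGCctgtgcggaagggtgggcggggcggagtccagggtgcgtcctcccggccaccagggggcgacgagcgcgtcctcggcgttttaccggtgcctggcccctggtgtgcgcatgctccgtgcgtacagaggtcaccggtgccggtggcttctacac
Ndufs4, chr13:114388045-114388344, minus strand, YY1 letters at +36: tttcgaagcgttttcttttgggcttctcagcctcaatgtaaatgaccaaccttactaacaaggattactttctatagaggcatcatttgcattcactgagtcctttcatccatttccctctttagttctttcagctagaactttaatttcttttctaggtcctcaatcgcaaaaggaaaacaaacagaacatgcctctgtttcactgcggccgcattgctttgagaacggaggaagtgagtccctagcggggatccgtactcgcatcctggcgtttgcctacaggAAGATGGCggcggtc

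Each stage was then compared on its own, with the same fit. The mitochondrial genes had negative log2 fold changes in all 13 cases at each of the 3 stages, with medians of -1.10 (asymptomatic), -0.66 (early symptomatic) and -1.08 (late symptomatic), but none passed the edgeR adjusted p of 0.05 with 4 tumours a group. At an unadjusted p under 0.05, 12, 0 and 7 of 13 passed, beside 5017, 4584 and 8382 of all 18810 genes tested. DESeq2 called 1, 0 and 7 of the 13. The asymptomatic values rested on tumour 3229B: without it the median was -0.64 and 0 of 13 passed an unadjusted p of 0.05, when 3596 of 19245 genes did. The share of all genes called lower was 12.5% at the asymptomatic, 12.4% at the early symptomatic and 19.9% at the late symptomatic stage.

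Nuclear members are given for each stage next. In asymptomatic tumours, 23 of 89 had a positive log2 fold change (median -0.11), and none was called higher (1.3% of all genes were). Without tumour 3229B, 69 of 89 were positive and the median was 0.13, so the sign of this median turned on 1 tumour. The single lower call, Cox6a2, had 5 counts over the 4 glioma libraries, against 87 over the 4 surrounding libraries, and passed the filter through the surrounding libraries alone. In early symptomatic tumours, 82 of 89 were positive (median 0.34), yet 0 were called in either direction, when 1.06% of all genes were called higher. At an unadjusted p of 0.05, 7 of the 89 passed, beside 4584 of all 18810 genes. DESeq2 called 0 higher and 2 lower in asymptomatic tumours, and 1 higher and 2 lower in early ones. In late symptomatic tumours, 81 of 89 were positive (median 0.43), 12 were called higher, close to the 15.4% of all genes, and the 2 called lower were Ndufa4l2 and Cox6a2, with the same limit of the filter. Here Ndufa4l2 had 2 counts over the 4 glioma libraries, against 135 over the 4 surrounding libraries, and Cox6a2 had 17, against 181.

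**Figure D4:**
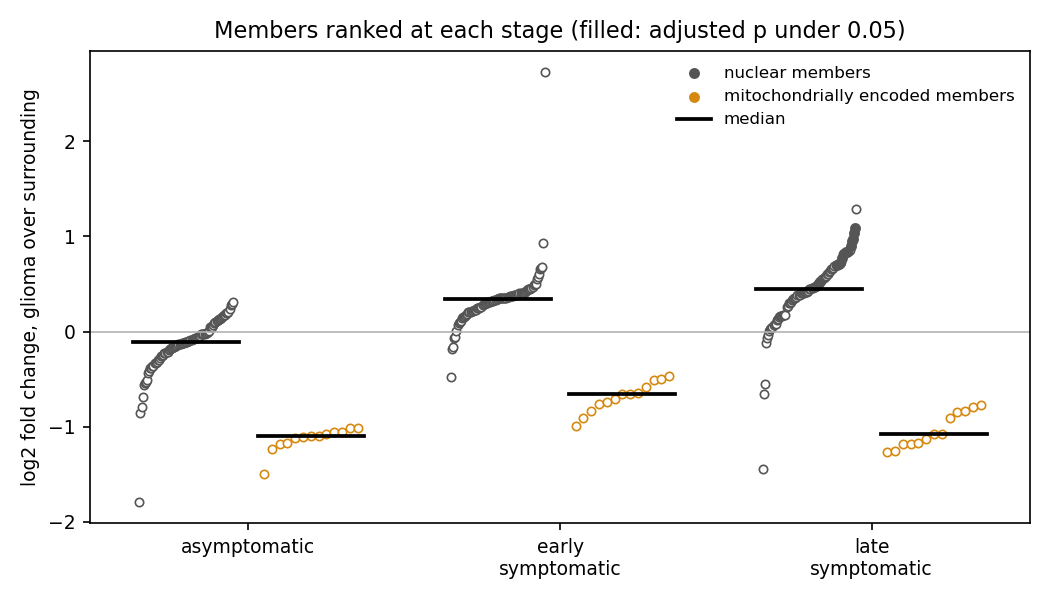
Log2 fold change (glioma over surrounding) of each member at each stage, ranked from low to high within each set; grey, nuclear; orange, mitochondrially encoded; filled, adjusted p under 0.05; black bars, medians of the points shown. Ndufa4l2 and Cox6a2 are left out of the plot. The nuclear median lies below 0 in asymptomatic tumours, where it is 0.13 without tumour 3229B, and above 0 at the other stages, while the 13 mitochondrial genes are below 0 at each stage.

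Of the 12 nuclear members called higher at the late stage, 9 were complex I subunits, 2 assembly factors and 1 an ATP synthase subunit, and 10 were also called over all stages. Those with the smallest p were Ndufv2 (0.98 ± 0.23), Ndufaf4 (0.95 ± 0.23), Ndufs4 (0.90 ± 0.24), Atp5o (0.83 ± 0.24) and Ndufs1 (0.51 ± 0.16), as log2 fold changes with SE and edgeR adjusted p between 0.00206 and 0.0139. Ndufv2 stood at 190, 218, 246 and 130 CPM in the late glioma libraries 3054A, 3054B, 3054C and 3057E, against 78.1, 85.2, 126 and 109 CPM in their surrounding libraries. All 4 glioma levels lay above the surrounding ones. Ndufs4 stood at 76.9, 85.9, 83.0 and 40.7 CPM in the same glioma libraries and at 28.7, 35.6, 45.5 and 43.2 CPM in the surrounding ones, with glioma 3057E inside the surrounding range. The 2 called here but not over all stages were Ndufa10 and Ndufs5. The count fell to 2 without 3054A or 3054B and to 6 without 3108D and 3109D. The share of all genes called in those runs is not given here. The count rose to 19 without 3229B, when 2568 of 19245 genes were called higher. The mitochondrial count at this stage was 7 without 3229B and 6 without 3057E, when 4037 of 19245 and 4484 of 19254 genes were called lower. With the tumour code as a block, 27 nuclear members were higher and 5 mitochondrial ones lower. The share of all genes called at this stage with the block is not given here, so these counts cannot be set against it.

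No difference between stages in the glioma to surrounding effect passed the test. Tested as interactions (edgeR, all 24 libraries), late minus early, late minus asymptomatic and early minus asymptomatic each gave 0 members past an adjusted p of 0.05, beside 0% of all 18810 genes in each. At an unadjusted p under 0.05, 0, 12 and 1 nuclear members and 0 mitochondrial ones passed, beside 1167, 1585 and 290 of the 18810 genes. DESeq2 called 0 members in each. The 12 nuclear members became 1 without 3229B, when 1020 of 19245 genes passed the same cut. The smallest member p values were for Ndufaf4 in late minus early (0.60 ± 0.32; edgeR adjusted p = 0.817), Ndufv2 in late minus asymptomatic (0.87 ± 0.32; edgeR adjusted p = 0.503) and a second, low row of Ndufs3 in early minus asymptomatic (4.52 ± 1.84; edgeR adjusted p = 0.9999). Without 3057E the counts of members were again 0, while of 19254 genes 622 were called higher and 813 lower in late minus asymptomatic, and 380 higher and 489 lower in late minus early. So neither the lower mitochondrial levels nor the higher nuclear ones were shown to differ between stages.

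The log2 nuclear to mitochondrial ratio was also set out by stage. The difference, glioma minus surrounding, was 0.83 in asymptomatic, 0.79 in early symptomatic and 1.4 in late symptomatic tumours, with a pooled SD within groups of 0.50. Without 3057E, where both populations had low mitochondrial shares (4.91% in glioma, 5.66% in surrounding cells), the late difference was 1.73.

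Within glioma cells alone, the 12 libraries were compared between stages. Asymptomatic glioma averaged a log2 nuclear to mitochondrial ratio of -3.60 ± 0.24, early symptomatic glioma -3.51 ± 0.22 and late symptomatic glioma -3.09 ± 0.36 (SD, n = 4 each). The nuclear share of counts was 0.613% ± 0.037 in asymptomatic, 0.683% ± 0.077 in early and 0.777% ± 0.136 in late glioma. Late glioma ranged from 0.634% in 3057E to 0.960% in 3054C.

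No single member was called between stages of glioma by edgeR: 0 in late minus early, when 0.273% of all genes were called, 0 in late minus asymptomatic (0.158%) and 0 in early minus asymptomatic (0%). At an unadjusted p under 0.05, 13, 43 and 4 nuclear members and 0 mitochondrial ones passed in these comparisons. Over all 16494 genes tested, 3243, 2445 and 810 passed the same cut. In late minus asymptomatic glioma, 84 of 86 nuclear members tested had a positive log2 fold change (median 0.44), against 4 of 13 mitochondrial genes (median -0.15, and 0.00345 without 3057E). The smallest p values belonged to Ndufv3, an accessory subunit of the NADH module (1.02 ± 0.23; edgeR adjusted p = 0.0836), Uqcrq, a small complex III subunit (0.82 ± 0.18; edgeR adjusted p = 0.0862), and Ndufs8, an iron-sulfur subunit (0.66 ± 0.16; edgeR adjusted p = 0.113). In late minus early glioma they included those of Atp5j2 and Ndufv3 (0.57 ± 0.19 and 0.65 ± 0.23; edgeR adjusted p = 0.152 and 0.157), and in early minus asymptomatic glioma to Ndufv2, Ndufa11 and Ndufa13 (0.52, 0.48 and 0.41; edgeR adjusted p = 0.936 for each). DESeq2 called 8 members in late minus asymptomatic, 2 in late minus early and 0 in early minus asymptomatic glioma. With sample weights, limma voom called 49, 18 and 0. The shares of all genes called by DESeq2 and voom are not given here, and the edgeR shares above do not apply to these counts.

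The count turned on 1 library. Without 3057E, edgeR called 45 nuclear members higher in late minus asymptomatic glioma, when 7.19% of all genes were, and 22 in late minus early glioma, when 8.58% of all genes were. All 22 were among the 45, but both comparisons share the late libraries. Those left were 3054A, 3054B and 3054C, all of 1 code prefix, so stage and prefix cannot be told apart in these fits. No mitochondrial member was called in either. By complex, the 45 held 22 of 39 complex I subunits, 0 of 8 assembly factors, 5 of 9 complex III, 8 of 13 complex IV and 10 of 17 ATP synthase genes tested. Ndufv3 stood at 44.7, 46.4, 35.4 and 39.2 CPM in asymptomatic glioma 3228A, 3228B, 3228D and 3229B, at 65.5, 54.5, 49.9 and 42.3 CPM in early glioma 3108C, 3108D, 3109D and 3145A, and at 88.5, 110.1, 89.5 and 46.2 CPM in late glioma 3054A, 3054B, 3054C and 3057E. The 3 late tumours other than 3057E stood above every early and asymptomatic one, and 3057E stood among them. Uqcrq showed the same picture, with 42.4, 44.9, 44.0 and 49.8 CPM in the asymptomatic, 56.2, 59.6, 51.3 and 63.0 CPM in the early and 73.6, 85.8, 106 and 52.5 CPM in the late libraries, in the same order of codes. Glioma 3057E is the library with red fluorescence, was taken at 100 days, had 1390 CPM of summed microglia markers, while late gliomas 3054A, 3054B and 3054C had 48.8 to 75.6 CPM, and had 479.7 CPM of monocyte and macrophage markers, against 25.8 to 29.7 CPM. Its part in the result beyond these values was not tested.

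**Figure D5:**
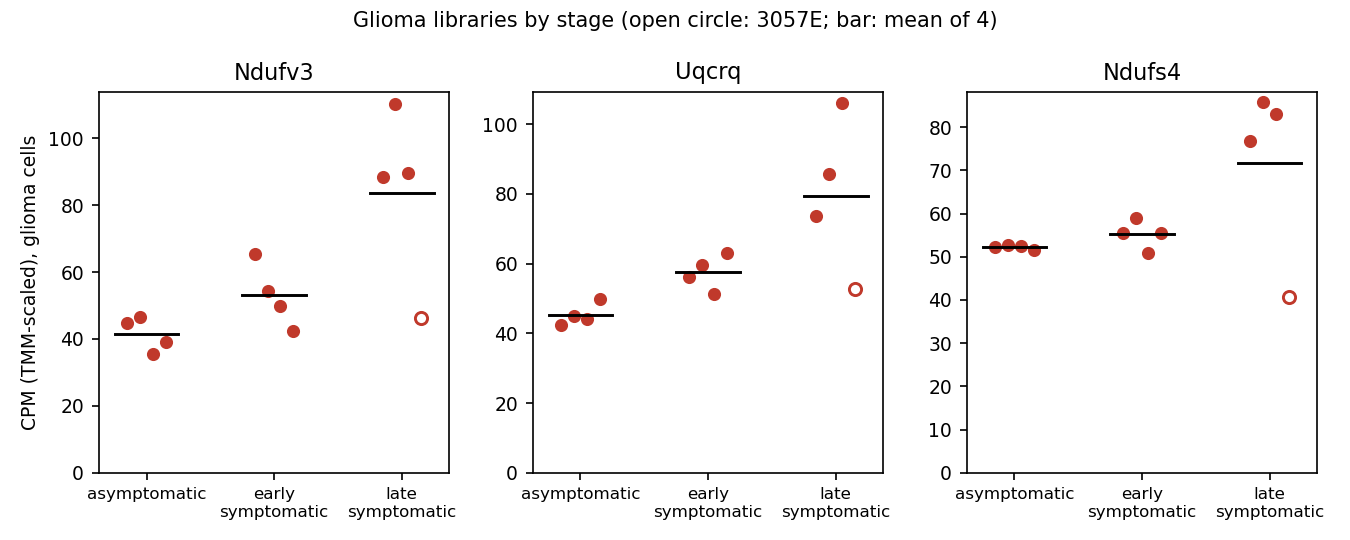
CPM (TMM-scaled) of Ndufv3, Uqcrq and Ndufs4 in the 12 glioma libraries by stage; each point is a library, the open circle is 3057E and bars are means of 4. The other 3 late libraries stand above all early and asymptomatic ones for each gene, and 3057E does not.

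Within surrounding cells the ratio of the stages differed by less than the spread between libraries. The log2 ratio averaged -4.44 ± 0.37 in asymptomatic, -4.30 ± 0.67 in early symptomatic and -4.49 ± 0.81 in late symptomatic brains (SD, n = 4 each). No member was called by edgeR in late minus early (1.48% of all genes called), late minus asymptomatic (0%) or early minus asymptomatic (0%). At an unadjusted p of 0.05, 2, 1 and 2 nuclear members passed, beside 2901, 2822 and 645 of all 17616 genes tested, and DESeq2 called 0 members in each. The smallest p values were for Cox6b2 in late minus early (1.20 ± 0.46; edgeR adjusted p = 0.220), Ndufa4l2 in late minus asymptomatic (2.17 ± 0.77; edgeR adjusted p = 0.208) and Cox6b2 in early minus asymptomatic (-1.19 ± 0.46; edgeR adjusted p = 0.9999). Without 3057E, 2 of 89 nuclear members, Cox6a2 and Cox4i2, were called higher in late minus early, fewer than the 9.18% of all genes called higher there. Both were at low counts. Cox4i2 had 93 in the 4 late and 10 in the 4 early libraries, and did not pass the count filter with 3057E in. For Cox6a2 the counts were 181 and 44. At such counts the filter favours genes high in 1 stage, so these calls are given as a description. The same limit bears on Ndufa4l2 in late minus asymptomatic, with 135 late and 35 asymptomatic counts. The largest Ndufa4l2 levels in surrounding cells, 7.01 and 4.14 CPM, were in late tumours 3054B and 3054C.

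Other genes tied to this machinery were read from lists. In glioma minus surrounding, genes of the mitochondrial ribosome, which translates the messages of the mitochondrial genome, were higher in 24 and lower in 0 of 78. Among them were Mrps5 (0.57 ± 0.10), Mrps22 (0.75 ± 0.15) and Mrps23 (0.80 ± 0.18), with edgeR adjusted p between 8.29e-05 and 0.000896. Over all genes, 22% were higher. Of the 26 genes for mitochondrial DNA copying, transcription and RNA, 8 were higher and 2 lower. Tfam, which packages and activates mitochondrial DNA, had 0.44 ± 0.10 (edgeR adjusted p = 0.00105), and Tfb2m, a transcription initiation factor, had 0.45 ± 0.10 (edgeR adjusted p = 0.000713), while Polg2, the accessory subunit of the mitochondrial DNA polymerase, was lower at -0.73 ± 0.17 (edgeR adjusted p = 0.00128).

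Complex II, which is wholly nuclear, had 3 of 8 higher and none lower: the assembly factors Sdhaf1 (0.40 ± 0.12) and Sdhaf3 (0.52 ± 0.19), and Sdhc, a membrane anchor (0.33 ± 0.13), with edgeR adjusted p between 0.0105 and 0.0375. Of 33 assembly genes tested for complexes III, IV, I and ATP synthase, 6 were higher and 1 lower, led by Ttc19, needed for complex III (0.51 ± 0.12; edgeR adjusted p = 0.00107), and Acad9, needed for complex I (0.49 ± 0.14; edgeR adjusted p = 0.00568), with Coa5 of complex IV lower (-0.50 ± 0.12; edgeR adjusted p = 0.00258). In the tricarboxylic acid cycle and pyruvate entry, 9 of 23 were higher and 4 lower. Idh3a, of the NAD-linked isocitrate dehydrogenase, was higher (0.61 ± 0.12; edgeR adjusted p = 0.000313), while Pdk4 (-2.99 ± 0.60; edgeR adjusted p = 0.000335) and Pdk1 (-1.22 ± 0.25; edgeR adjusted p = 0.000490), kinases that switch pyruvate dehydrogenase off, were lower. Among 10 nuclear regulators, the 2 GABP subunits Gabpa (0.51 ± 0.09; edgeR adjusted p = 0.000116) and Gabpb1 (0.41 ± 0.11; edgeR adjusted p = 0.00592) were higher, and the nuclear receptor Esrra (-0.61 ± 0.19; edgeR adjusted p = 0.0107) and the coactivator Ppargc1b (-0.74 ± 0.26; edgeR adjusted p = 0.0233) were lower. In the comparisons between stages, 0 genes of these lists were called by edgeR, within glioma or within surrounding cells.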

How the data were processed

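RNA of sorted mouse glioma and surrounding cells was sequenced from poly(A) RNA with the CORALL kit, per the labels' protocols. The deposited table holds expected counts per gene, made by the authors with STAR 2.7.5c and RSEM 1.3.1 on GRCm38 (mm10), per the submitters' processing notes. The annotation release, strand setting and use of molecular identifiers are not given in the sources used here. Between 13.2% and 16.5% of values per library were not whole, and all were rounded. Library totals were 9.076e+06 to 1.547e+07, and no pair of replicates agreed within sampling noise (lowest chi-square per degree of freedom 22.2).

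Genes passing filterByExpr (minimum count 10) entered edgeR's robust quasi-likelihood test (version 4.0.16, R version 4.3.3, TMM scaling, no fold limit), with p-values adjusted by Benjamini-Hochberg over all genes tested and called under 0.05. Glioma minus surrounding used all 24 libraries, averaging 3 stages, and the stage comparisons used the 12 libraries of 1 population. DESeq2 1.42.0 and limma 3.58.1 were alternatives. The fit was checked on simulated counts. Lengths and positions came from GENCODE M21, which held 107 of 109 members.

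Libraries with 1 tumour code come from 1 brain per the labels. Their deviations from group means correlated by 0.0285 to 0.525, over 0.1 in 9 of 12 codes. The lowest were 3109D (0.0285) and 3108D (0.0492), the codes that look exchanged. Glioma 3108D correlated by 0.52 with surrounding 3109D, and glioma 3109D by 0.401 with surrounding 3108D. The main fit has no block, and the block was an alternative. The labels do not say whether tumours of 1 code prefix share a litter.

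Named genes were all mitochondrial members, 1 or 2 core subunits per complex, isoform pairs, and in each comparison up to 5 called members per direction by p, or the 3 with the smallest p where fewer than 3 were called. Up to 3 called genes were named per further list. Other members called over all stages are named without full values, and 1 member that the rule names is not reported here. Members and lists were chosen with earlier results of these data known.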

Additional observations from a re-analysis of the deposited data

Results flagged for a closer look

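In 228 groups of 4 libraries (38 measures in 6 groups), the highest or lowest library was set against the other 3 by Dixon's criterion, which chance meets in about 1 of 20 groups. It was met 28 times, and 20 of these were surrounding 3229B of the asymptomatic stage. There the mitochondrial share was 23.89%, against 8.95% to 10.47% in the other 3 libraries, and the nuclear share 0.7609%, against 0.494% to 0.516%. Its CPM was 36140 for mt-Atp6, 8227 for mt-Atp8, 24750 for mt-Nd1, 19770 for mt-Nd2, 3387 for mt-Nd3, 34840 for mt-Nd4, 16130 for mt-Nd5, 31450 for mt-Cytb, 80330 for mt-Co1, 23690 for mt-Co2 and 29040 for mt-Co3. Among nuclear members it was high for Atp5o (145.2 CPM), Ndufa4 (149.1), Ndufab1 (39.99), Ndufb2 (30.6), Ndufc1 (41.25), Ndufaf5 (18.96) and Uqcrb (88.19). The same library had 29540 CPM of summed mature oligodendrocyte markers and the part of these in its levels was not tested.

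In glioma libraries, mt-Co3 stood at 7217 CPM in late 3054B (the other 3 at 4709 to 5060), Atp5b at 1009 in late 3054C (634.9 to 691.5) and Ndufa4l2 at 0.1789 in late 3054B, where the others were at 0. Ndufa5 was high in early 3108D (54.06 CPM, the others 40.64 to 41.77) and low in late 3057E (24.25, the others 56.98 to 58.55), and Ndufc1 was low in early 3108C (18.96, the others 28.02 to 28.72). In early surrounding libraries, Ndufb11 was low in 3108D (41.3 CPM, the others 56.64 to 59.62) and Ndufs1 high in 3145A (78.04, the others 65.03 to 65.96).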

How the results depend on the processing

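No member called in the glioma to surrounding comparisons changed direction. The median of asymptomatic nuclear members (-0.11) turned to 0.20 with limma voom and ran from -0.292 to 0.13 (without 3229B) leaving out a tumour, and that of mitochondrial members in late minus asymptomatic glioma (-0.15) ran from -0.382 to 0.00345 (without 3057E). Differences of the ratio between stages of surrounding cells, all smaller than the spread, also changed sign under some alternatives. The 13 lower mitochondrial genes stayed within 11 to 13 under every alternative, and each log2 ratio moved by less than the spread between libraries. The cause of the changes below was not tested. For most alternatives the share of all genes called is not given here, so their counts cannot be set against it. For 17 nuclear members higher over all stages, DESeq2 size factors gave 8, scaling without mitochondrial genes 9, no count filter 9, a minimum count of 50 8, limma voom 59, the replicate block 29, the block without 3108D and 3109D 11, the block with these surrounding codes exchanged 40, and leaving both out 4, with 5 to 20 when each tumour was left out. For 3 lower, the minimum of 50 gave 1. In asymptomatic tumours, nuclear lower (1) became 2 with DESeq2, voom and the block, 0 with the minimum of 50 and the block without both codes, and 0 to 1 leaving out a tumour. Mitochondrial lower (0) became 1 with DESeq2, 2 with the exchanged block, and 0 to 1 leaving out a tumour. In early tumours, nuclear higher (0) became 1 with DESeq2, voom and the block, 4 with the exchanged block, and nuclear lower (0) became 2 with DESeq2 and 1 without mitochondrial genes in the scaling, with voom and with the block, both 0 to 1 leaving out a tumour. In late tumours, nuclear higher (12) became 50 with voom, 27 with the block, 36 with the exchanged block and 6 without both codes, and 2 to 19 leaving out a tumour, while nuclear lower (2) became 1 with the minimum of 50 and 1 to 3 leaving out a tumour. Mitochondrial lower (0) became 7 with DESeq2, 5 with its size factors, 2 without mitochondrial genes in the scaling, 6 with the minimum of 50, 7 with voom, 5 with the block, 8 with either other block, and 0 to 7 leaving out a tumour. Voom called 2 in the late minus asymptomatic interaction and 2 in late minus early surrounding cells (0 to 2 leaving out a tumour). In glioma, late minus early became 2 with DESeq2, 18 with voom and 0 to 22 leaving out a tumour, and late minus asymptomatic 8, 49 and 0 to 45, with 1 without the filter. The exchanged codes and the runs without both codes for the ratio were chosen after seeing the data. Low counts limit Ndufa4l2 and Cox6a2.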
